A study of Mus musculus with 12 samples.

Results

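Transcriptional regulators that shape or mark the projection neurons of the striatum were examined in mouse embryos that lacked Foxp1 in the nervous system. The set held 10 genes picked by name, Ikzf1, Ikzf2, Bcl11a, Bcl11b, Mef2c, Meis2, Zfp503, Zfp521, Tshz1 and Tle4. All 10 were present among the 25428 probe sets of the array, 1 probe set per gene. The set was drawn up with results of this comparison known, so the differences between genotypes below describe these genes and support nothing beyond that. Striatal tissue was taken at embryonic day 18.5 from 6 wild-type (WT) and 6 Nestin-Cre (Foxp1-/-) biological replicates, the second group called cKO here, all of the C57BL/6J background, with 1 array each. Whether a replicate was 1 embryo is not labelled. Nestin-Cre drives recombination in neural progenitors and their descendants throughout the nervous system, so the loss was not restricted to the striatum. The genotype of the WT animals at the Cre and Foxp1 loci was labelled only as wild type. The striata of both hemispheres were dissected, so every value is an average over all cell types of the tissue, and fewer cells of a type cannot be told apart from less RNA per cell.

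Projection neurons are the GABAergic output cells of the striatum and arise from the lateral ganglionic eminence. Their identity is set by DNA-binding factors that act in sequence, some in dividing progenitors and others in maturing neurons, and several of these factors are also used in cortex, blood or vessels. Ikzf1 (Ikaros) and Ikzf2 (Helios) are zinc finger proteins of the Ikaros family, known first from lymphocytes, and Ikzf1 is also required for enkephalin-producing projection neurons. Bcl11a (Ctip1) and Bcl11b (Ctip2) are paired zinc finger repressors, and Bcl11b is a widely used nuclear marker of striatal projection neurons. Mef2c is a MADS-box factor that responds to neuronal activity and regulates synapses. Meis2 is a TALE homeodomain factor that binds DNA with PBX partners. Zfp503 (Nolz1) is a zinc finger protein of early striatal differentiation, Zfp521 a protein with many zinc fingers, Tshz1 a teashirt-family zinc finger homeobox factor, and Tle4 a Groucho corepressor that is recruited by DNA-binding factors.

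To show the sequence just upstream of the genes that differed most, the promoter windows of the RefSeq set for the GRCm38.p6 assembly were searched. Windows were found for 7 of the 10 genes, 11 windows in all, and none were found for Ikzf2, Zfp521 and Tshz1. The 250 bases before the annotated start are given for Ikzf1 (chr11:11685675-11685924, plus strand), Mef2c (chr13:83503784-83504033, plus strand) and Tle4 (chr19:14598184-14598433, minus strand), 5′ to 3′, with CpG dinucleotides in capitals. Each is the window of 1 annotated start, and these arrays do not tell which start was used.
Ikzf1: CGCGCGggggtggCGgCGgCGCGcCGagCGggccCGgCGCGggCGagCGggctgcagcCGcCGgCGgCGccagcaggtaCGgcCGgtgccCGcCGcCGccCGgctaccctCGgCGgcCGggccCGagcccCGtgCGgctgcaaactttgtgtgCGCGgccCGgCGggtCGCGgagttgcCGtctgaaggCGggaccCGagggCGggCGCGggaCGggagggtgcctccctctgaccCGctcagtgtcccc
Mef2c: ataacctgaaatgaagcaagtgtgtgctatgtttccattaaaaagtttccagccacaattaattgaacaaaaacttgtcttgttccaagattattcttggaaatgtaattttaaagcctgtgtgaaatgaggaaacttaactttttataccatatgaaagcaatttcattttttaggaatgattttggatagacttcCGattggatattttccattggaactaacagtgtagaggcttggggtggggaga
Tle4: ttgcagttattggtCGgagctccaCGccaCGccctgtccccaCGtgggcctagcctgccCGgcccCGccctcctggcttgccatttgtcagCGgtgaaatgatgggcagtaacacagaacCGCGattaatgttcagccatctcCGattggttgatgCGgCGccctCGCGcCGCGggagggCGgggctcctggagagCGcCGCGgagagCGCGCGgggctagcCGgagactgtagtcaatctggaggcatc
The Ikzf1 window was 82.0% G and C with 44 CpG, the Tle4 window 65.2% with 24 CpG, and the Mef2c window 33.6% with 1 CpG. Windows of other starts of the same genes differed from these, with 47.6% and 1 CpG for the second of Ikzf1, 44.8% with 6 CpG and 49.6% with 4 CpG for the others of Mef2c, and 70.8% with 35 CpG for the second of Tle4. Over all 32851 windows of this length the median was 52.4%, with quartiles of 45.2% and 61.2%, and the median CpG count was 6, with quartiles of 2 and 16. The forkhead motif TGTTTAC was found in 0 of the 11 windows on either strand, and in 3.17% of all windows. The MEIS motif TGACAG was found in 0 of the 11, against 15.9% of all windows. These counts say only that the letters were not in these windows.

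Foxp1 itself was lower in every cKO array. Its RMA log2 expression lay between 10.89 and 11.39 on the WT arrays, between 10.14 and 10.36 on the cKO arrays, a difference of -0.91 ± 0.07 (SE; limma adjusted p = 0.000170). Positions of the probes relative to the deleted part were not given. Of all probe sets 0.728% were called at a limma adjusted p under 0.05, 0.299% higher and 0.429% lower in cKO. Among 22 measured genes that carry out projection neuron functions, Pde7b and Pde10a were called lower and 0 were called higher. Penk lay 0.38 ± 0.08 (SE) above WT and just missed the threshold (limma adjusted p = 0.0501). Of the 22, 13 passed an unadjusted p of 0.05, 11 lower and 2 higher, against 10.7% of all probe sets. That share covers dim probe sets too, while only 1 of the 22 averaged below the median level. The unadjusted share over brighter probe sets alone was not computed, here or for the lists below. The list mean lay between 8.17 and 8.46 on the WT arrays and between 8.03 and 8.16 on the cKO arrays. Of these 22, the GABA-synthesis gene Gad2 (11.40 ± 0.04 in WT, SD, n = 6) and the dopamine receptor gene Drd2 (9.43 ± 0.16 in WT, SD, n = 6) were bright. Others were dimmer in WT, among them Drd1 at 6.81, Adcy5 at 6.74, Pdyn at 6.09 and Scn4b at 5.42. These levels alone do not check the tissue label. Cortical glutamatergic neuron genes were also measurable, and all 14 of 16 listed genes that were measured lay above WT in cKO, although 0 were called (limma) and 2 of the 14 passed an unadjusted p of 0.05, as 10.7% of all probe sets did. The cortical list mean lay between 6.15 and 6.51 on the WT arrays and between 6.17 and 6.62 on the cKO arrays, and Slc17a7 and Emx1 of this list averaged below the table median of 5.71. The mean of genes of dividing cells lay between 7.23 and 7.47 on the WT arrays and between 7.30 and 7.53 on the cKO arrays, and 1 of 9 measured, Aurkb, rose. All 9 lay above WT in cKO, with a median difference of 0.14, and 3 passed an unadjusted p of 0.05.

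Of the 10 regulators, Ikzf1 and Mef2c fell and Zfp521, Tshz1 and Tle4 rose, while 5 did not pass the threshold. The groups did not overlap for 6 genes, which were Ikzf1, Ikzf2 and Mef2c on the lower side and Zfp503, Tshz1 and Tle4 on the higher side. Over all probe sets the groups did not overlap for 1.38%, 0.822% lower and 0.562% higher, and for 2.25% of those above the median level, where all 10 genes lay. The median absolute difference was 0.26 log2 units among the 10 genes, 0.020 over all probe sets and 0.046 over the probe sets above the median level. The signed differences were balanced, 5 positive and 5 negative, with a median of -0.019 against -0.00077 over all probe sets. The list was proposed with these values in view, so nothing is read from its counts. Alternative fits gave other counts and backgrounds, among them these. With a covariate of cortical genes Ikzf1, Mef2c and Tle4 passed (0.22% of all probe sets), without WT replicates 3 and 6 Ikzf1, Tle4 and Tshz1 (0.488%), and without cKO replicates 1 and 3 Ikzf1 and Tle4 (0.271%), as at an adjusted p under 0.01 (0.24%). The count was 5 with cyclic loess (0.739%), 4 with array weights (0.822%), 4 with a covariate of Y-linked genes (0.594%), 6 with a trended robust prior (0.999%), 7 with only the brighter probe sets tested (2.19%), and 4 to 6 without any 1 array (0.417% to 0.893%).

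**Figure D1:**
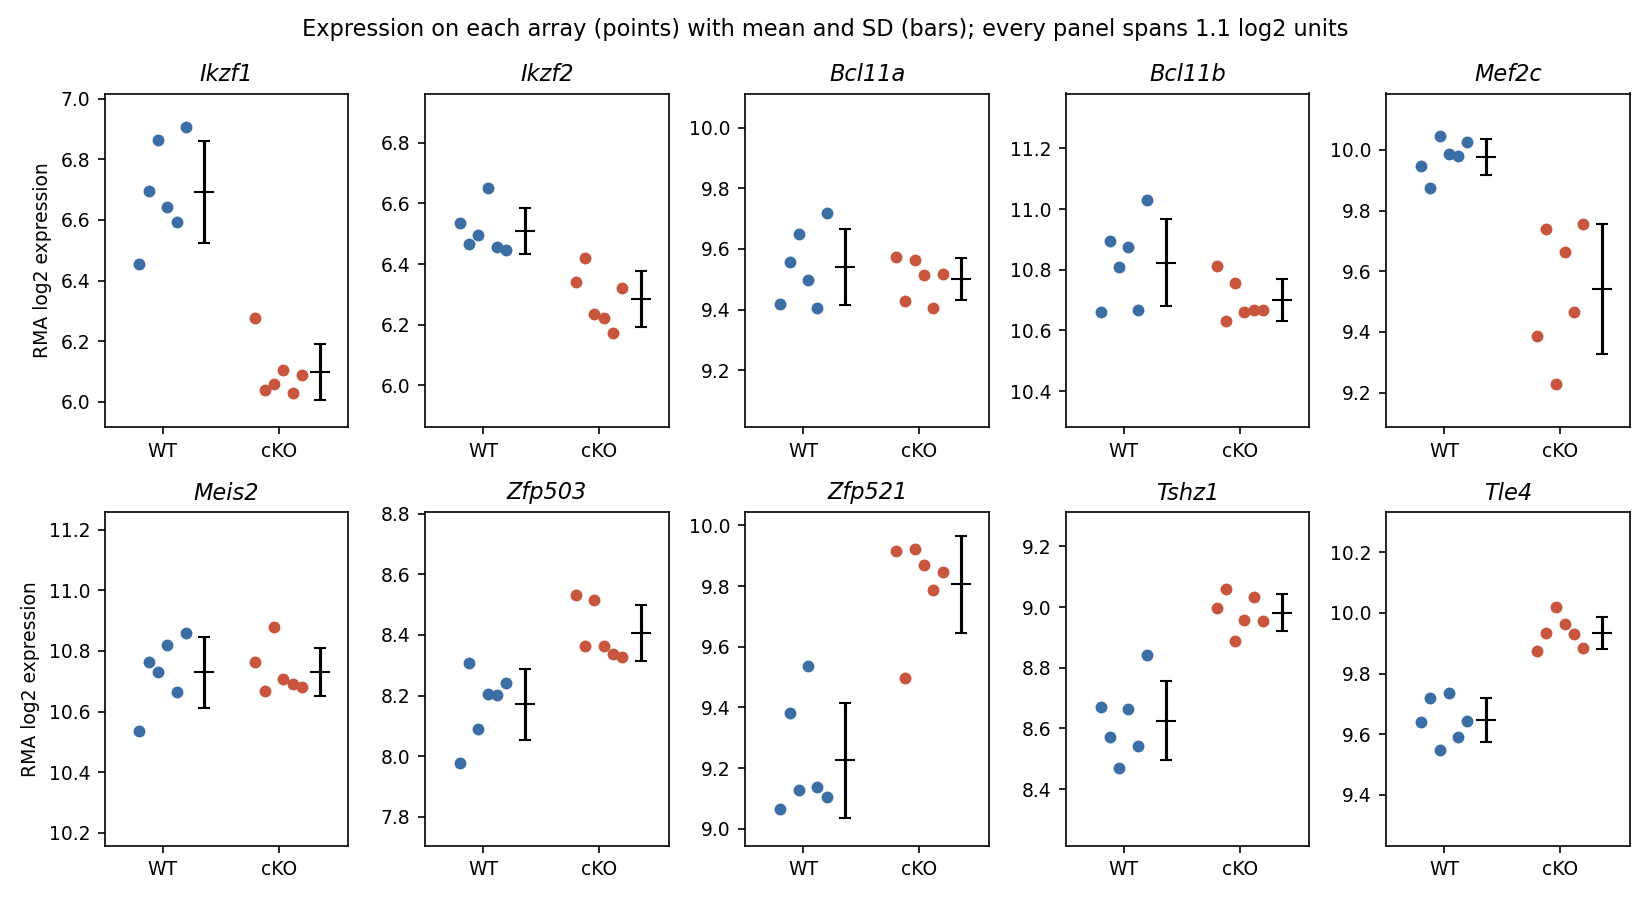
RMA log2 expression of the 10 regulators (y axis, every panel spanning the same number of log2 units) on each of the 6 WT (blue) and 6 cKO (red) arrays, in order of replicate number, with the mean and SD as black bars. Ikzf1, Ikzf2 and Mef2c lie lower in all 6 cKO arrays than in any WT array, Zfp503, Tshz1 and Tle4 lie higher, and Bcl11a, Bcl11b, Meis2 and Zfp521 overlap.

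Ikzf1 (Entrez gene 22778) had the largest fall of the set. It read 6.45 at the lowest, 6.67 at the median and 6.91 at the highest in WT, and 6.03, 6.07 and 6.28 in cKO. All 6 cKO arrays lay below the lowest WT array, and cKO replicate 1 stood nearest to it. The mean went from 6.69 ± 0.17 to 6.10 ± 0.09 (SD, n = 6 each), a difference of -0.59 ± 0.07 (SE; 95% interval -0.75 to -0.43), or 1.51-fold lower. The cKO level was close to the table median of 5.71, where RMA compresses differences. Ikzf1 is also a gene of blood cells. Of 15 microglia and leukocyte genes 14 were measured, 6 of them below the table median, and the list mean lay between 5.78 and 5.82 in both groups. The pan-leukocyte gene Ptprc averaged 5.39 in WT and 5.40 in cKO, both below the table median, where a change could hardly be seen. The part of blood cells in the Ikzf1 difference was not tested.

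Ikzf2 (Entrez gene 22779), the other Ikaros-family gene of the set, lay lower in cKO without passing the threshold. It read 6.45, 6.48 and 6.65 in WT (lowest, median, highest) and 6.17, 6.28 and 6.42 in cKO. The groups were separated by a narrow gap, with cKO replicate 2 just under WT replicate 6. The difference was -0.22 ± 0.05 (SE; 95% interval -0.32 to -0.12). It passed with only the brighter probe sets tested, with a trended robust prior and without cKO replicate 2.

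Bcl11a and Bcl11b, the 2 Ctip genes, overlapped between the genotypes. Bcl11a (Entrez gene 14025) read 9.41, 9.53 and 9.72 in WT and 9.41, 9.52 and 9.57 in cKO, a difference of -0.04 ± 0.05 (SE; 95% interval -0.16 to 0.08). Bcl11b (Entrez gene 58208) read 10.66, 10.84 and 11.03 in WT and 10.63, 10.67 and 10.81 in cKO, a difference of -0.12 ± 0.06 (SE; 95% interval -0.26 to 0.0082). The Bcl11b interval reached only just above 0, and its cKO arrays filled the lower part of the WT range. The intervals bound a fall of Bcl11a at 0.16 and one of Bcl11b at 0.26 log2 units, both smaller than the fall measured for Ikzf1.

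Mef2c (Entrez gene 17260) fell, with widely spread cKO arrays. It read 9.88, 9.98 and 10.04 in WT and 9.23, 9.57 and 9.76 in cKO. Every cKO array lay below every WT array, and cKO replicates 3 and 1 were the lowest at 9.23 and 9.39. The mean went from 9.98 ± 0.06 to 9.54 ± 0.21 (SD, n = 6 each), a difference of -0.44 ± 0.08 (SE; 95% interval -0.62 to -0.25), or 1.35-fold lower. The call passed in 7 of 21 alternative fits. Among the fits that lost it were those with array weights or the Y-linked covariate, without any 1 WT array, without WT replicates 3 and 6, without cKO replicate 1, 4 or 5, and without cKO replicates 1 and 3, when the difference was -0.32. The mean absolute deviation from the group median was 0.043 in WT and 0.180 in cKO, and the difference in spread had an exact permutation p of 0.00649 (two-sided, 924 splits, smallest possible p 0.00216), or 0.0649 adjusted over the 10 genes. None of the other 9 genes had an unadjusted p under 0.05 in this test of spread, and their exact permutation p ran from 0.132 to 0.807.

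Mef2c is also expressed in cortical neurons, in interneurons and in endothelium, so their genes are given beside it. The 2 cKO arrays with the lowest Mef2c also had the lowest mean of the cortical list, 6.17 for replicate 3 and 6.26 for replicate 1, against 6.54 to 6.62 in the other cKO arrays. In WT the cortical mean ran from 6.15 to 6.51 while Mef2c stayed within 9.88 to 10.04. Across the cKO arrays Mef2c and the cortical mean had r = 0.84 and rho = 0.77 (exact permutation p = 0.0250, adjusted over the 10 genes 0.0833), and r was -0.26 without the 2 arrays farthest from the median, so the relation rests on those. In WT r was -0.43 (exact permutation p = 0.383). With the mean of 3 cortical genes (Neurod6, Neurod2 and Tbr1) as a covariate the difference was -0.56 ± 0.08, against -0.44 without. That mean was itself 6.65 in WT and 7.08 in cKO, and the fit used a common slope for both groups. Interneuron genes averaged 8.11 to 8.23 in WT and 8.18 to 8.29 in cKO, with Maf up and Cxcr4 down among the 10 measured, and endothelial genes averaged 6.18 to 6.26 in WT and 6.22 to 6.29 in cKO. The part of these cells in the Mef2c difference was not tested.

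**Figure D2:**
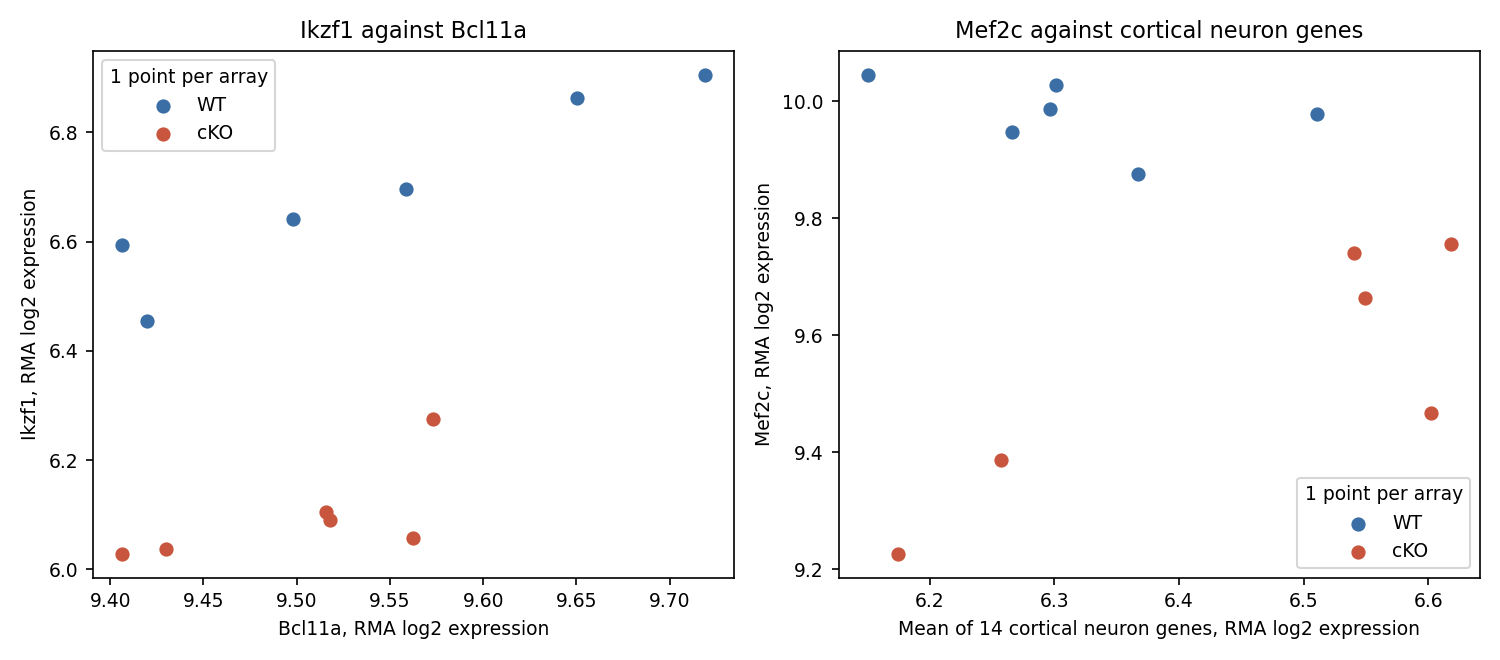
Left, Ikzf1 (y axis) against Bcl11a (x axis), and right, Mef2c (y axis) against the mean of 14 cortical neuron genes (x axis), all in RMA log2 expression, 1 point per array, WT in blue and cKO in red. Ikzf1 follows Bcl11a within WT, and all cKO points lie below all WT points for Ikzf1, over an overlapping range of Bcl11a. The cKO arrays with the lowest cortical mean, replicates 3 and 1, have the lowest Mef2c, at 9.23 and 9.39.

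Meis2 (Entrez gene 17536) averaged 10.73 in both groups. It read 10.54, 10.75 and 10.86 in WT and 10.67, 10.70 and 10.88 in cKO, and the difference of 0.0023 ± 0.054 (SE) had a 95% interval of -0.12 to 0.12. Zfp503 (Entrez gene 218820) read 7.98, 8.20 and 8.31 in WT and 8.33, 8.36 and 8.53 in cKO. Its groups were just separated, WT replicate 2 at 8.31 lying next to cKO replicate 6 at 8.33, and cKO replicates 1 and 3 were the highest. The difference of 0.24 ± 0.06 (SE; 95% interval 0.11 to 0.36) did not pass the threshold, except with only the brighter probe sets tested. Across the cKO arrays Zfp503 ran against the mean of the cortical list (r = -0.98, rho = -0.94, exact permutation p = 0.00972, adjusted over the 10 genes 0.0833). Without the 2 arrays farthest from the median, which leaves 4, r was -0.998. Over those 4 arrays Zfp503 ran only from 8.33 to 8.37, so little can be read from that value. In WT r was 0.49 (exact permutation p = 0.332), and the difference between the groups was not tested. Zfp503 was not alone in this. Across the cKO arrays Meis2, Bcl11b and Bcl11a also had negative r with the cortical mean, -0.91, -0.87 and -0.73. Without the same 2 arrays these were -0.04, 0.75 and 0.08. Mef2c and Tshz1 had positive r across the cKO arrays, 0.84 and 0.52.

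Zfp521 (Entrez gene 225207) had the largest rise of the set. It read 9.06, 9.13 and 9.54 in WT and 9.50, 9.86 and 9.92 in cKO. The groups overlapped at 1 array each, because cKO replicate 2 at 9.50 lay below WT replicate 4 at 9.54. The mean went from 9.22 ± 0.19 to 9.81 ± 0.16 (SD, n = 6 each), a difference of 0.58 ± 0.09 (SE; 95% interval 0.38 to 0.79), or 1.50-fold higher. The call passed in 17 of 21 alternative fits, and among those that lost it were the fits with the cortical covariate (0.60), without WT replicates 3 and 6 (0.53) and without cKO replicates 1 and 3 (0.52).

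Tshz1 (Entrez gene 110796) read 8.47, 8.62 and 8.84 in WT and 8.89, 8.98 and 9.06 in cKO. The highest WT array, replicate 6, came close to the lowest cKO array, replicate 3, but the groups did not overlap. The difference was 0.36 ± 0.05 (SE; 95% interval 0.24 to 0.48), or 1.28-fold higher. The call passed in 18 of 21 alternative fits, and among those that lost it were the fits with the cortical covariate (0.33) and without cKO replicates 1 and 3 (0.37).

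Tle4 (Entrez gene 21888) rose by less than Zfp521, with narrow groups. It read 9.55, 9.64 and 9.73 in WT and 9.87, 9.93 and 10.02 in cKO, with a clear gap between them. The mean went from 9.65 ± 0.07 to 9.93 ± 0.05 (SD, n = 6 each), a difference of 0.29 ± 0.03 (SE; 95% interval 0.21 to 0.36), or 1.22-fold higher. Tle4 also marks deep-layer cortical neurons. With a covariate of 3 cortical genes (Neurod6, Neurod2 and Tbr1) its difference was 0.29 ± 0.04 and passed. Across all 12 arrays, with group means subtracted, Tle4 and the mean of the 14 cortical genes had r = -0.10 and rho = -0.08 (permutation p = 0.744 and 0.799). Within the groups r was 0.18 in WT and -0.35 in cKO. The part of cortical cells in the Tle4 difference was not tested.

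The families of these genes were then read in full. Of 17 paralogues, all measured, 0 were called by limma, against 0.728% of all probe sets, and 6 passed an unadjusted p of 0.05, 4 higher and 2 lower, against 10.7% of all probe sets (5.06% higher and 5.67% lower). The 4 were Tshz3, Zfp703, Ikzf4 and Tshz2, and the 2 were Mef2d and Mef2a. The median difference of the 17 was -0.0035. Of the 17, 2 averaged below the median level, so the share over all probe sets, dim ones included, is not a like base. Tshz3, a second teashirt gene, had a difference of 0.36 ± 0.09 (SE; limma adjusted p = 0.128), the same size as Tshz1. Its spread was wider in cKO (SD 0.23 against 0.06 for Tshz1) and narrower in WT (0.07 against 0.13). Tshz3 passed with only the brighter probe sets tested and without cKO replicates 1 and 3. Mef2d had -0.19 ± 0.05 (limma adjusted p = 0.136), on the same side as Mef2c. Within the Ikaros family the members differed in sign, with Ikzf4 at 0.17 ± 0.06 and Ikzf5 at 0.06 ± 0.06 (limma adjusted p = 0.269 and 0.749), and Ikzf3 averaged 5.42 in both groups, below the table median. The other Groucho genes Tle1, Tle2, Tle3, Tle5 and Tle6 lay between -0.12 and 0.05, and Zfp423, the paralogue of Zfp521, had -0.025 ± 0.030 (limma adjusted p = 0.828). Paralogues that share sequence could share probes, and the probe sequences were not used here.

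**Figure D3:**
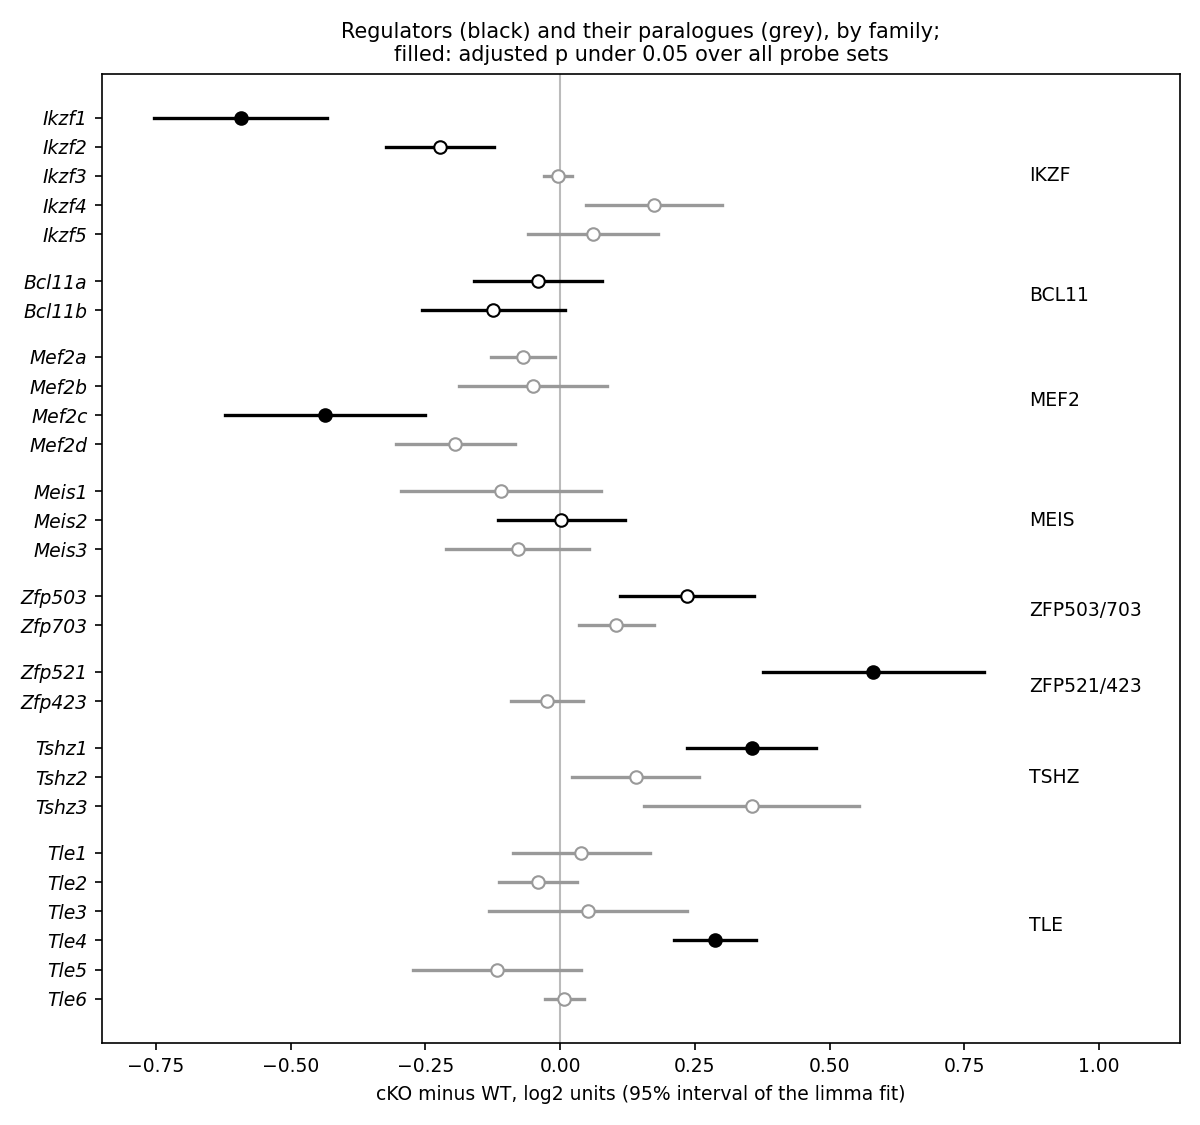
Difference between cKO and WT in log2 units (x axis) with its 95% interval from the limma fit for the 10 regulators (black) and their 17 paralogues (grey), grouped by family. Filled points passed an adjusted p of 0.05 over all probe sets, and they are Ikzf1, Mef2c, Zfp521, Tshz1 and Tle4, each the only called gene of its family.

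Other transcription factors of the developing striatum were read as a setting for these 10. Of 38 listed, 36 were measured, 3 fell and 0 rose, against 0.429% and 0.299% of all probe sets. Foxp1, the deleted gene, is among the 36 and the 3, and its fall came with the design, so it says nothing of the list. The 3 were Foxp1, the forkhead gene Foxo1 (-1.08 ± 0.17, limma adjusted p = 0.0141) and the retinoid receptor gene Rxrg (-0.70 ± 0.14, limma adjusted p = 0.0440). Rxrg was called in 2 of the 12 fits without 1 array (without WT replicate 1 and without cKO replicate 1), against 12 of 12 for Foxo1, and neither was called with the cortical covariate or without cKO replicates 1 and 3. An unadjusted p under 0.05 was found for 19, Foxp1 included, against 10.7% of all probe sets, of which 9 lay higher and 10 lower. Only 1 of the 36 averaged below the median level, so the 10.7%, which covers dim probe sets too, is not a like base. The median difference of these 36 was 0.028, against -0.00077 over all probe sets. The total called, Foxp1 included, was 6 with only the brighter probe sets tested, 5 without WT replicate 1 and 1 with the cortical covariate.

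Complexes that work with several of these regulators were also read. Ikaros-family and BCL11 proteins recruit the NuRD deacetylase complex, BCL11 proteins are subunits of the BAF remodelling complex, and MEF2 factors are held in check by class IIa histone deacetylases. Of 36 genes of these groups, all measured, 0 were called by limma and 6 passed an unadjusted p of 0.05, 2 higher and 4 lower, against 0.728% and 10.7% of all probe sets. All 36 averaged above the median level, and these shares cover dim probe sets too. The nearest to the threshold was Smarca2, an ATPase of BAF, at 0.38 ± 0.08 (limma adjusted p = 0.0582), with all 6 cKO arrays above the WT arrays. It passed without WT replicate 3, and in 5 other alternative fits. The other 5 were Hdac5 (-0.14 ± 0.03, limma adjusted p = 0.0743), which passed without WT replicate 1, Hdac9 (0.11 ± 0.03, limma adjusted p = 0.194), the BAF genes Actl6b (-0.071 ± 0.027, limma adjusted p = 0.344) and Dpf1 (-0.14 ± 0.06, limma adjusted p = 0.396), and Mta3 of NuRD (-0.19 ± 0.06, limma adjusted p = 0.236). The second NuRD gene by p, Chd4, did not pass even unadjusted (-0.13 ± 0.06, limma adjusted p = 0.503).

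How the 10 genes varied together from array to array rests on deviations from the group means, not on the difference between genotypes. Group means were subtracted and all 45 pairs were correlated over the 12 arrays. Ikzf1 and Bcl11a had r = 0.89 (permutation p = 0.00087, adjusted over 45 pairs 0.0324) and rho = 0.92 (permutation p = 0.00059, adjusted 0.0241). Bcl11b and Meis2 had r = 0.85 (permutation p = 0.00144, adjusted 0.0324) and rho = 0.89 (permutation p = 0.00107, adjusted 0.0241). Without the 2 arrays farthest from the median of the first gene, r was 0.72 for Ikzf1 and Bcl11a and 0.82 for Bcl11b and Meis2. The other 43 pairs did not pass, the next being Bcl11a with Bcl11b (r = 0.83, rho = 0.81, permutation adjusted p = 0.0790 for r, and r = 0.84 without 2 arrays) and Meis2 with Zfp503 (r = 0.78, rho = 0.69, permutation adjusted p = 0.0790 for r, and r = 0.48 without 2 arrays).

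Of the first pair only Ikzf1 differed in level between the genotypes by the threshold used. Among all probe sets Bcl11a was number 8 in order of correlation with Ikzf1, and Meis2 was number 13 for Bcl11b. Within WT alone the values were r = 0.95 for Ikzf1 and Bcl11a and r = 0.91 for Bcl11b and Meis2 (exact permutation p = 0.00556 and 0.0153). Within cKO alone they were r = 0.68 and r = 0.72 (exact permutation p = 0.101 and 0.0722). No pair passed after adjustment in either group, but the smallest exact permutation p that 6 arrays allow is 0.00139, which is 0.0625 for a single pair after adjustment over 45, so this says nothing of stability. For Ikzf1 every cKO array lay below every WT array, while Bcl11a overlapped. Any WT and cKO arrays matched for Bcl11a therefore had to differ in Ikzf1. As an example picked after the values were seen, WT replicate 2 and cKO replicate 3 both read 9.56 for Bcl11a. They read 6.70 and 6.06 for Ikzf1.

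**Figure D4:**
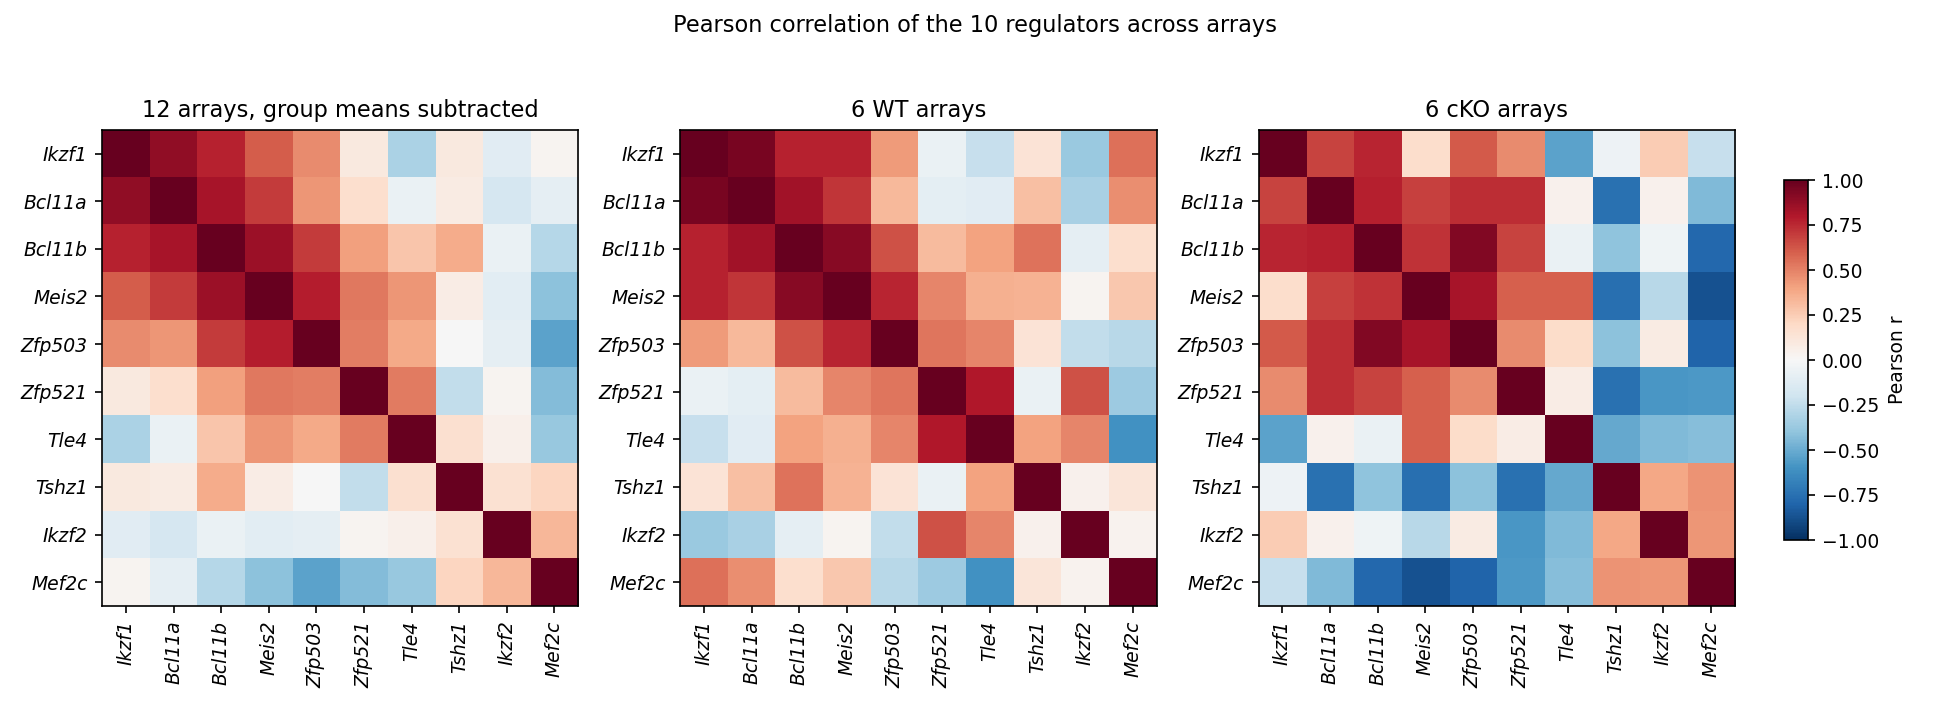
Pearson correlation (colour scale, from -1 to 1) between the 10 regulators over the 12 arrays with group means subtracted, over the 6 WT arrays and over the 6 cKO arrays. The order of genes was set by hand. Ikzf1, Bcl11a, Bcl11b, Meis2 and Zfp503 stand at the upper left. In the first panel their r runs from 0.44 (Bcl11a and Zfp503) to 0.89 (Ikzf1 and Bcl11a). Only Ikzf1 with Bcl11a and Bcl11b with Meis2 passed. With any of these genes Ikzf2 and Mef2c had r of at most 0.029, Tshz1 0.37, Tle4 0.44 and Zfp521 0.53.

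The correlation of Mef2c with Meis2 was 0.27 in WT and -0.87 in cKO, and with Bcl11b 0.16 in WT and -0.78 in cKO. With Ikzf1 it was 0.55 in WT and -0.23 in cKO, and with Bcl11a 0.46 in WT and -0.44 in cKO. These values are a description over 6 arrays each, and the difference between the groups was not tested. The mean of the cortical list was lowest in cKO replicates 1 and 3. Among the cKO arrays these also had the highest Zfp503, Zfp521, Bcl11a, Bcl11b and Meis2. The part of tissue composition in these correlations was not tested.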

How the data were processed

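Striatal total RNA of 12 biological replicates, 6 WT and 6 cKO, was measured on 1-colour arrays. The values deposited by the authors are RMA log2 expression, per the submitters' processing notes, which give no version. The scanner and its software are not given in the sources used here. Sorted values of the 12 columns differed by at most 0.0019 (median 5.71, range 5.21 to 13.99), so a change common to all genes cannot be seen. RMA compresses differences of dim genes. The number of arrays limits the precision. Array pairs correlated at 0.992 to 0.998. Symbols came from the platform annotation, checked by Entrez gene ID in a GRCm38.p6 RefSeq table, for 24674 of 25428 probe sets.

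The values were compared with limma 3.58.1 (R 4.3.3, lmFit and eBayes, two-sided, no covariates) over all probe sets, with Benjamini-Hochberg adjustment, a threshold of 0.05 and 95% intervals. Called means past that threshold. The limma p values set the difference between groups against the spread between replicates, moderated over all probe sets. The fit was tested on simulated data. The members and lists were chosen with earlier results of these data known. Correlations between members were planned as a description, and their tests, the tests of spread and the relations to cortical genes were added after the data were examined. Correlations used 100000 permutations within groups, and exact tests enumerated all 924 splits or all 720 orders. The genes named are the 10 members, Foxp1, and from each list up to 4 called genes or the 2 with the smallest p, with others named after their values were seen. For called members the 3 most correlated genes above the median level are named. Alternatives were cyclic loess, a replicate block, array weights, a prior that was trended and robust, omission of probe sets below the median level, covariates of 3 cortical or 3 Y-linked genes (4 planned each), omitted arrays and a threshold of 0.01. Protein sequences were not used here. Promoter windows were read from RefSeq.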

Additional observations from a re-analysis of the deposited data

Results flagged for a closer look

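In 22 groups of 6 arrays (the 10 regulators and Foxp1 in each genotype), 2 arrays stood far from the rest by Dixon's criterion, under which chance marks about 1 group in 20. Ikzf1 read 6.28 in cKO replicate 1 against a cKO median of 6.07, and this gap to the nearest array took up 0.689 of the group's range. Zfp521 read 9.50 in cKO replicate 2 against a cKO median of 9.86, with a gap of 0.680 of the range. The critical value for 6 arrays is 0.625. Ikzf1 was called without cKO replicate 1, and Zfp521 without cKO replicate 2.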

How the results depend on the processing

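Foxp1 passed in all 21 alternative fits, Ikzf1 and Tle4 in 20, Tshz1 in 18, Zfp521 in 17 and Mef2c in 7. Differences ran from -0.64 to -0.50 for Ikzf1, from -0.56 to -0.32 for Mef2c, from 0.52 to 0.64 for Zfp521, from 0.32 to 0.40 for Tshz1 and from 0.26 to 0.31 for Tle4. The number of regulators called, 5 in the reported fit, was 0 with the replicate number as a block, 3 with the cortical covariate, 3 without WT replicates 3 and 6, 2 without cKO replicates 1 and 3 (chosen after seeing the data) and 2 at an adjusted p below 0.01, and 4 to 6 without 1 array. The numbers share no source in the labels. Deviations of same-numbered arrays correlated at -0.23 to 0.16, no WT array correlated best with the cKO array of its number, and 64 probe sets were called under the block (0.252%), against 185.

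Paralogues called were 0, and 1 with only probe sets above the median level or without cKO replicates 1 and 3, and 0 to 0 without 1 array. Other striatal factors called were 3, and 6 with only those probe sets or with a trended robust prior, 5 with array weights, 1 with the block or the cortical covariate, and 2 to 5 without 1 array. Foxp1, the deleted gene, was among them in every fit. Of the complex genes 1 was called with only those probe sets, with a trended robust prior, with array weights, with the Y-linked covariate or without WT replicates 3 and 6 (Smarca2 each time), and 0 to 1 without 1 array. Of the 45 pairs, 2 were called over 12 arrays and 0 in WT alone or cKO alone, where 6 arrays could give a single pair no adjusted p below 0.0625. Meis2, near 0 throughout, changed sign with cyclic loess (-0.00090), array weights (-4.2e-05), the Y-linked covariate (-0.0056), without cKO replicates 1 and 3 (-0.042) and without WT replicate 1 (-0.036), WT 5 (-0.010), cKO 1 (-0.0038) or cKO 3 (-0.027), with -0.036 to 0.028 over all 12 such fits. Bcl11a changed sign to 0.030 without WT replicates 3 and 6. The cause of these shifts was not tested, beyond fewer probe sets or fewer arrays in the fits that leave some out.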

Other observations

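The probe sets that most resembled each called regulator from array to array were named by a fixed rule, as a description over 12 arrays with group means subtracted, chosen as the highest of all probe sets above the median level. For Ikzf1 they were Ccnjl (r = 0.94), Plekhj1 (0.91) and Smad3 (0.90), a transducer of TGF-beta and activin signals. For Tshz1 they were Rchy1 (0.93), Onecut3 (0.90) and Zfp469 (0.89). For Tle4 they were Vps37a (0.93), Vsir (0.89) and the potassium channel gene Kcna3 (0.87). For Zfp521 they were Mrpl43 (0.88), the Krüppel-like factor gene Klf5 (0.87) and Lin7a (0.87). None of these 12 was itself called between the genotypes, limma adjusted p running from 0.262 to 0.955.

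For Mef2c they were Ephx1 (r = 0.92), Ndufb2 (0.88) and Fezf2 (0.88), the last a transcription factor of deep-layer cortical projection neurons and a gene of the cortical list used above. Fezf2 and Mef2c had r = 0.99 over the 6 cKO arrays and -0.44 over the 6 WT arrays. Fezf2 lay between 6.11 and 6.45 on the WT arrays and between 5.55 and 6.77 on the cKO arrays, and its means did not separate the genotypes (6.26 ± 0.15 and 6.29 ± 0.50, SD, n = 6 each; limma adjusted p = 0.974). The difference between the 2 correlations was not tested.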
